A study of Homo sapiens with 4 samples.

Results

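DNA replication origin and fork genes are described here: 50 genes that load, fire and carry the replication machinery, taken by symbol from the 57820 genes of the deposited table. All 50 were found, each symbol on a single row, and all 50 had enough counts to be tested. The RNA came from U87, an established line of human glioma cells, carrying a hairpin labelled shGlud1, aimed at the glutamate dehydrogenase gene GLUD1, or a control hairpin labelled shNT. There were 2 libraries a group. Both groups grew in Dulbecco's modified Eagle's medium with 10% bovine calf serum, and both had spent 6 h in low glucose, so no library shows the genes in ordinary glucose. The labels give each group a hairpin name followed by a number. They do not say whether the number marks separate hairpins, separate cultures or repeated preparations. The p-values then set the difference between groups only against the spread of libraries within a group, estimated in part across genes. That spread may be technical.

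Replication starts at origins bound by the origin recognition complex ORC. With CDC6 and CDT1, ORC loads the ring of MCM2 to MCM7, and geminin (GMNN) blocks CDT1 so that origins are licensed once per cycle. The kinase CDC7 with DBF4, then CDC45 and the GINS complex, turn the loaded ring into the active helicase. Polymerases alpha, delta and epsilon copy DNA behind it. The RFC complex loads PCNA, the sliding clamp of the fork. Many of these genes are targets of E2F transcription factors and are transcribed most strongly before and during S phase, so in bulk RNA a change in the share of cells in S phase and a change in RNA per cell cannot be told apart.

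Total expected counts ran from 16546849 to 18537314 per library. The hairpin's target, GLUD1, stood at 78.1 and 76.5 CPM in shNT and at 34.0 and 44.5 CPM in shGlud1, a log2 fold change of -0.98 (SE 0.13, adjusted p = 1.26e-12). CPM is a gene's expected count relative to the library's total (edgeR's cpm), scaled with TMM factors, which equalise typical genes between libraries. Scaled by total counts alone, GLUD1 was at 64.4 and 64.6 CPM in shNT and at 39.1 and 55.3 CPM in shGlud1. Its log2 fold change was then -0.45 (adjusted p = 0.003 in edgeR's test). The 7 markers of the line (VIM, CD44, FN1, SPARC, NES, CAV1, LGALS1) summed to 12378 to 13349 CPM in shNT and 11681 to 13267 CPM in shGlud1; within that sum 5 rose and LGALS1 fell, at a median log2 fold change of 0.99. CDKN2A and MTAP, which this line has lost, were at 0 in every library. Summed levels were 359 to 401 and 276 to 290 CPM for 5 immune markers, 53.5 to 57.6 and 12.9 to 14.2 CPM for 4 epithelial markers, and 5.23 to 5.79 and 7.65 to 8.59 CPM for 3 neuronal markers, in shNT and shGlud1 in turn. CD68 and KRT14 made up most of the first pair of sums, while AIF1 was at 0 in every library and PTPRC did not exceed 0.073 CPM. The 3 endothelial markers found summed to 0.85 to 1.75 CPM over the 4 libraries. The part of these markers in the results was not tested.

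Replication genes were mostly higher in the shGlud1 libraries. Of the 50 genes, 33 rose, against 31.9% of all 14616 genes tested, and 5 fell (ORC3, ORC4, ORC5, POLD2 and RPA3), against 29.1%. At least 2-fold rises numbered 19, against 14.9% of all genes. Both shGlud1 libraries lay above both shNT libraries in 37 of the 50, against 42.8% of all genes. The median log2 fold change (shGlud1 over shNT) was 0.76 in the 50 genes and 0.06 in all genes. Calls rest on edgeR's quasi-likelihood test at an adjusted p under 0.05. Scaling by total counts alone, without TMM factors, shifted all 50 genes upward: 44 of the 50 rose and 0 fell in edgeR's test (0 also at an unadjusted p under 0.05; DESeq2 was run with its own size factors only), against 7592 rises and 2000 falls among all genes. The median of all genes was then 0.57, and that of the 50 lay 0.71 above it, against 0.70 above it with TMM factors. The count of replication genes that fell thus differed between the scalings. The distance of their median from that of all genes could hardly differ, because the scaling shifted all genes by nearly the same amount. It is therefore no check of the rise.

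**Figure D1:**
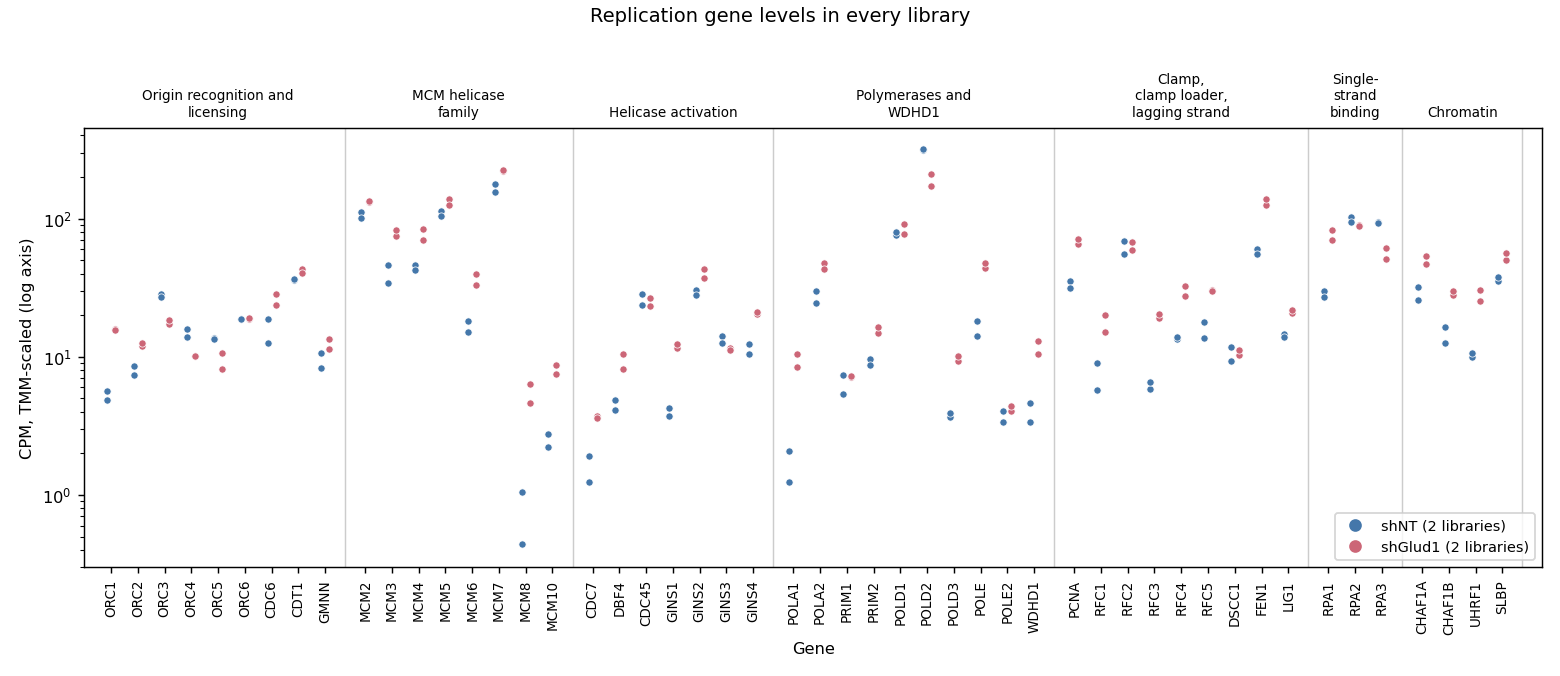
CPM (TMM-scaled, log axis) of the 50 replication genes in each library, ordered by role; each point is 1 library, blue for shNT and red for shGlud1. Red points lie above both blue points in 37 genes, against 42.8% of all genes tested. In 7 genes (ORC3, ORC4, ORC5, POLD2, RPA3, GINS3 and RPA2) the order is reversed. The share of all genes in that reverse order was not counted.

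Promoter sequence did not choose these genes. RefSeq promoters (GRCh38.p14, 250 bases before to 50 after the start site) were matched for 43 of the 50 genes by symbol, not for DSCC1, GINS4, MCM4, MCM5, POLD3, RPA2 and RPA3. They were searched on both strands for 4 E2F-type runs of 8 letters, TTTCCCGC, TTTCGCGC, TTTGCCGC and TTTGGCGC. These letters can overlap each other across strands. At least 1 of them stood in 19 of the 43 promoters (44.2%), against 3.3% of all 35116 promoters of that length in the table and 4.9% of the 14399 that belong to genes tested here. Among the genes that rose they stood in 15 of 30, among those that fell in 1 of 4, and among those that passed in neither direction in 3 of 9. TTTGAA, the letters of a CHR-type element found in mitosis genes, stood in 1 of the 43 (DBF4), against 15.2% of all promoters and 10.6% of those of genes tested. The 43 promoters held a median of 31 CG pairs, against 14 in all promoters and 25 in those of genes tested. Each E2F-type run holds CG and TTTGAA does not, and the part of this in the shares was not tested. A match describes letters, not binding. Below are the promoters of the genes with the largest rises (MCM8, POLA1), of MCM6, whose promoter held the most matches of the set, of ORC3, which fell and holds a match, and of POLD2, which fell and holds none; MCM6 and ORC3 were picked after their matches were seen. Each reads 5′ to 3′ on the gene's strand, with E2F-type letters of either strand in capitals:
MCM8, chr20:5950402-5950701, plus strand: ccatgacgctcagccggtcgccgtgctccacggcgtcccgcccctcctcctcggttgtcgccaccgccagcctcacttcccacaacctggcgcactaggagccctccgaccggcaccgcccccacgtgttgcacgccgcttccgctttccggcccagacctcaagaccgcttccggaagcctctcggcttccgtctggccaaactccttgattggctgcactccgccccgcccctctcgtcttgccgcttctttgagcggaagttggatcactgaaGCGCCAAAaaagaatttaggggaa
POLA1, chrX:24693668-24693967, plus strand: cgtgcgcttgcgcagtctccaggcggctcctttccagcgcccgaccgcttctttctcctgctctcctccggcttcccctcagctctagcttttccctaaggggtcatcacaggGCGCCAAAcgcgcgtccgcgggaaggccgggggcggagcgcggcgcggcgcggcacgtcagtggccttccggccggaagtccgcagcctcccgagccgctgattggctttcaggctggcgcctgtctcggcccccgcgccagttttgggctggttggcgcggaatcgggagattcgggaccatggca
MCM6, chr2:135876394-135876693, minus strand: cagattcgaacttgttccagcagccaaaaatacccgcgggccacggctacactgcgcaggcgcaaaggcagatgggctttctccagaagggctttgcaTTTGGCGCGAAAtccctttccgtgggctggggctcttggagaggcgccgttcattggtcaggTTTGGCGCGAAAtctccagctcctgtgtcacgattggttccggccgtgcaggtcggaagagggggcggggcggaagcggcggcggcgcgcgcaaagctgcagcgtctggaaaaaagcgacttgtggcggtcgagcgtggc
ORC3, chr6:87589885-87590184, plus strand: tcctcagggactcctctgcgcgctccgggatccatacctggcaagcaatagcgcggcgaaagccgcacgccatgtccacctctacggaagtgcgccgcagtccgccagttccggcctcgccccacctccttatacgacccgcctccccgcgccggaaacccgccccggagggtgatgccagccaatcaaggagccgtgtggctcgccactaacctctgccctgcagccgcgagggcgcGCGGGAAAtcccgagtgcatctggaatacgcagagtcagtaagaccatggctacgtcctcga
POLD2, chr7:44123499-44123798, minus strand: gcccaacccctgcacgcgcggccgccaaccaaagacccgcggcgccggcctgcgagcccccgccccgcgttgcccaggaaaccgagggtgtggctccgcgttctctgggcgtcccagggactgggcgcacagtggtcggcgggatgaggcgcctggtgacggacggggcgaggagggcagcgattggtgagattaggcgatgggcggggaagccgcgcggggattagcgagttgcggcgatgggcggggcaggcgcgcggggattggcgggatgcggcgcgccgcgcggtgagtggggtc
In MCM8 the match starts 26 bases after the start site, in POLA1 137 bases before it and in ORC3 12 bases before it. In MCM6 there were 4 overlapping matches, in 2 blocks that start 152 and 90 bases before the start site.

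Of 9 licensing genes, ORC1, CDC6 and ORC2 rose and ORC3, ORC4 and ORC5 fell, at a median log2 fold change of 0.21; both shares are near those of all genes tested (31.9% and 29.1%). ORC1, the largest ORC subunit and the one whose level rises and falls with the cell cycle (GRCh38 chromosome 1, 52372829 to 52404459), was at 4.91 and 5.62 CPM in shNT and at 15.8 and 15.5 CPM in shGlud1. Its groups did not overlap, and its log2 fold change was 1.57 (SE 0.21, adjusted p = 4.38e-13). CDC6, the ATPase that joins ORC to load the ring, was at 18.8 and 12.7 CPM in shNT and at 23.8 and 28.4 CPM in shGlud1, a log2 fold change of 0.74 (SE 0.16, adjusted p = 1.37e-05). The shNT pair of CDC6 lay further apart than its shGlud1 pair. ORC2, a core subunit, rose by 0.62 on the log2 scale.

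The 3 ORC genes that fell also encode core subunits of the complex. ORC3 was at 28.4 and 27.3 CPM in shNT and at 17.2 and 18.4 CPM in shGlud1 (log2 fold change -0.64, SE 0.15, adjusted p = 9.26e-05). ORC4 was at 13.8 and 16.0 CPM in shNT and at 10.2 and 10.1 CPM in shGlud1 (-0.56, SE 0.19, adjusted p = 0.00573). ORC5 was at 13.8 and 13.5 CPM in shNT and at 8.15 and 10.6 CPM in shGlud1 (-0.54, SE 0.19, adjusted p = 0.0105). In all 3 both shGlud1 libraries lay below both shNT libraries on this scale. Scaled by total counts the groups of ORC4 and ORC5 overlapped, with ORC5 at 11.4 CPM in both shNT libraries and at 9.36 and 13.2 CPM in shGlud1. ORC6, the small subunit outside the core, was at 18.7 CPM in both shNT libraries and at 18.7 and 19.1 CPM in shGlud1 (0.016, adjusted p = 0.939). CDT1 (0.21, adjusted p = 0.185) and its inhibitor GMNN (0.40, adjusted p = 0.0654) did not pass the test. Under total counts ORC6 (0.54), CDT1 (0.72) and GMNN (0.92) passed as higher.

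Several licensing calls were not firm. The falls of ORC3, ORC4 and ORC5 lost their calls under total counts (-0.12, -0.042 and -0.011), ORC4 also without shNT replicate 2 (adjusted p = 0.133), ORC5 without shNT replicate 1 (0.0806), shNT replicate 2 (0.0632) or shGlud1 replicate 1 (0.102), ORC2 without shNT replicate 1 (0.101) and CDC6 without shNT replicate 2 (0.0617). When the trend of fold change on transcript length described below was removed, ORC2 (0.33) and ORC5 (-0.30) lost their calls, and GMNN gained one (0.88), as it also did with the replicate block (0.40, adjusted p = 0.0382) and without shGlud1 replicate 1 (0.50, adjusted p = 0.0293); with length and GC trends removed CDC6 (0.15) and ORC2 (0.20) lost their calls and CDT1 gained one (0.41).

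The 8 genes named MCM include MCM10, a factor outside the MCM family proper. Of the 8, 7 rose, against 31.9% of all genes tested, at a median of 0.89. MCM8, a relative of the replicative ring that works with MCM9 in repair of broken forks (chromosome 20, 5950652 to 5998977), was at 0.44 and 1.05 CPM in shNT and at 4.65 and 6.34 CPM in shGlud1. These levels came from 6 and 16 expected counts in shNT and 93 and 146 in shGlud1. At 2.85 (SE 0.36, adjusted p = 1.43e-14), its log2 fold change was the largest of the 50 genes. Its size rested on few control reads: it was 3.63 without shNT replicate 2 and 2.39 to 3.63 when each library was left out in turn. MCM10, which helps start unwinding and brings in polymerase alpha, was at 2.78 and 2.22 CPM in shNT and at 7.55 and 8.68 CPM in shGlud1 (1.70, SE 0.26, adjusted p = 7.01e-10).

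The genes of the replicative ring itself rose by smaller and unequal amounts. MCM6 (1.13), MCM3 (0.98), MCM4 (0.79), MCM7 (0.40) and MCM2 (0.33) rose. MCM5 was at 113 and 104 CPM in shNT and at 138 and 126 CPM in shGlud1, and its log2 fold change of 0.28 (SE 0.13) missed the threshold (adjusted p = 0.0526), although the groups did not overlap. Per kilobase of the longest transcript, MCM7 was the most abundant ring gene in both groups, at 54.6 CPM per kb in shNT and 71.8 in shGlud1. MCM6 was the least abundant, at 4.46 and 9.79 CPM per kb. MCM6 was 0.13 and 0.17 times MCM5 in counts in the shNT libraries and 0.24 and 0.32 times in the shGlud1 libraries, a pair chosen by its fold changes. MCM2 lost its call with RLE factors (adjusted p = 0.0721), with DESeq2 (0.06), with the length trend removed (0.13, adjusted p = 0.389) and without shNT replicate 1 (0.0986) or 2 (0.278), and MCM7 without shNT replicate 2 (0.243). MCM5 was called as higher with upper-quartile factors (0.30), with no filter on low counts (0.33), under total counts (0.80) and without shGlud1 replicate 2 (0.35), and was at -0.050 with the length trend removed.

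Of the 7 genes that activate the helicase 5 rose, against 31.9% of all genes tested, at a median of 0.88. GINS1, a subunit of the GINS complex that holds the helicase together (chromosome 20, 25407727 to 25452628), was at 3.74 and 4.25 CPM in shNT and at 11.5 and 12.3 CPM in shGlud1 (1.57, SE 0.23, adjusted p = 3.99e-11). CDC7, the kinase that fires licensed origins, was at 1.90 and 1.24 CPM in shNT and at 3.75 and 3.60 CPM in shGlud1 (1.23, SE 0.34, adjusted p = 0.000779). Its activating subunit DBF4 rose by a similar amount (1.05). Without shNT replicate 2 the call of CDC7 ended (0.94, adjusted p = 0.0504), as did that of GINS2 (0.39, adjusted p = 0.0925).

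GINS4 (0.88) and GINS2 (0.46) rose as well. GINS3 did not pass the test (-0.23, adjusted p = 0.285), and with length and GC trends removed it was called as lower (-0.58, adjusted p = 0.00248). GINS1 stood at 0.26 and 0.34 times the counts of GINS3 in the shNT libraries and at 0.99 and 1.10 times in the shGlud1 libraries. CDC45, the third part of the active helicase, was at 28.3 and 23.8 CPM in shNT and at 23.4 and 26.8 CPM in shGlud1, with groups that overlapped (-0.051, SE 0.15, adjusted p = 0.782); it was called as higher under total counts (0.47, adjusted p = 0.0102).

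**Figure D2:**
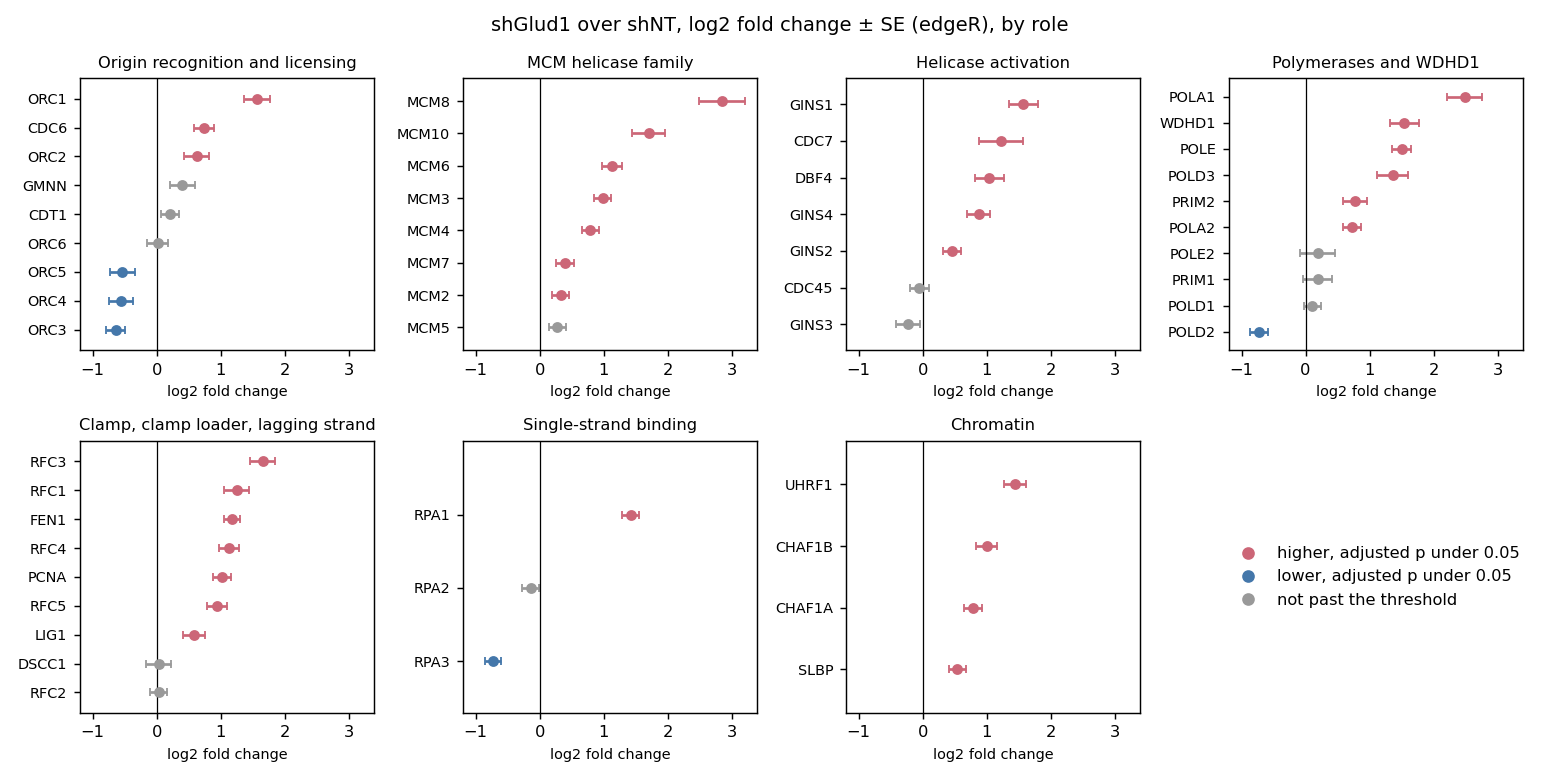
Log2 fold change, shGlud1 over shNT, with its standard error for each gene, 1 panel per role; red marks genes that rose, blue those that fell and grey those past the threshold in neither direction. The licensing, activation, polymerase and single-strand binding panels hold genes on both sides of 0, and all 4 chromatin genes lie to its right.

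Among the polymerase genes and WDHD1, 6 of 10 rose and POLD2 fell, against 31.9% and 29.1% of all genes tested. Their median was 0.75. POLA1, the catalytic subunit of polymerase alpha (chromosome X, 24693919 to 24996986), was at 1.25 and 2.09 CPM in shNT and at 8.40 and 10.5 CPM in shGlud1 (2.49, SE 0.28, adjusted p = 3.09e-18). WDHD1, which ties polymerase alpha to the helicase, was at 3.37 and 4.64 CPM in shNT and at 10.5 and 13.0 CPM in shGlud1 (1.54, SE 0.23, adjusted p = 9.45e-11). The catalytic subunit of the leading-strand polymerase, POLE, rose by 1.51 and the regulatory subunit POLD3 by 1.36 on the log2 scale. PRIM2 (0.77) and POLA2 (0.73), the large primase subunit and the regulatory subunit of polymerase alpha, rose by less.

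POLD2, the small subunit of polymerase delta (chromosome 7, 44114681 to 44124358), was at 315 and 321 CPM in shNT and at 211 and 173 CPM in shGlud1. It was the most abundant of the 50 genes in shNT on this scale, whereas MCM7 was in shGlud1 (220 and 223 CPM), and both shGlud1 libraries lay below both shNT libraries (-0.73, SE 0.14, adjusted p = 5.22e-07). Scaled by total counts it was at 260 and 271 CPM in shNT and at 243 and 215 CPM in shGlud1, still without overlap, and it did not pass the test there (-0.22, adjusted p = 0.0732). The catalytic subunit POLD1 was at 76.7 and 79.7 CPM in shNT and at 91.7 and 76.8 CPM in shGlud1, with groups that overlapped (0.11, SE 0.13, adjusted p = 0.485). It was called as higher under total counts (0.62) and with length and GC trends removed (0.24). The small primase subunit PRIM1 (0.19, adjusted p = 0.487) and POLE2 (0.19, adjusted p = 0.564) did not pass the test. PRIM1 passed as higher once the length trend was removed (0.60) and under total counts (0.71), and POLE2 under total counts (0.71).

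Clamp, clamp loader and lagging-strand genes rose in 7 of 9 cases, against 31.9% of all genes tested, at a median of 1.02. RFC3, a small subunit of the clamp loader (chromosome 13, 33818049 to 33966558), was at 5.86 and 6.60 CPM in shNT and at 19.0 and 20.4 CPM in shGlud1 (1.66, SE 0.19, adjusted p = 2.56e-16). RFC1, the large subunit, was at 5.71 and 9.02 CPM in shNT and at 15.1 and 20.01 CPM in shGlud1 (1.25, SE 0.19, adjusted p = 6.11e-10). RFC4 (1.13) and RFC5 (0.94) rose too. RFC2 was at 68.4 and 55.4 CPM in shNT and at 67.3 and 59.1 CPM in shGlud1, so its groups overlapped (0.030, SE 0.13, adjusted p = 0.855). RFC2 passed as higher once the length trend was removed (0.36), once length and GC trends were (0.44) and under total counts (0.55).

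The flap endonuclease gene FEN1 (1.18), the clamp gene PCNA (1.02) and the ligase gene LIG1 (0.58), which act on Okazaki fragments, rose. PCNA was at 35.5 and 31.6 CPM in shNT and at 65.1 and 70.7 CPM in shGlud1. With the length trend removed LIG1 lost its call (0.31, adjusted p = 0.0818), whereas PCNA and FEN1 were at 1.47 and 1.33. DSCC1, part of an alternative clamp loader used in sister chromatid cohesion, did not pass the test (0.033, adjusted p = 0.896) except under total counts (0.55, adjusted p = 0.0235).

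The 3 subunits of RPA, which coats single-stranded DNA at the fork, went different ways. RPA1, the large subunit, was at 29.9 and 27.3 CPM in shNT and at 70.5 and 82.5 CPM in shGlud1 (1.42, SE 0.14, adjusted p = 5.26e-24). RPA2 was at 102 and 93.8 CPM in shNT and at 90.4 and 87.7 CPM in shGlud1 (-0.14, SE 0.13, adjusted p = 0.35), and it was called as higher under total counts (0.38, adjusted p = 0.00295). RPA3, the smallest subunit, was at 94.7 and 92.3 CPM in shNT and at 61.7 and 51.1 CPM in shGlud1 (-0.73, SE 0.13, adjusted p = 8.92e-08), a call that ended under total counts (-0.22, adjusted p = 0.112). RPA1 therefore stood at 0.32 and 0.30 times the counts of RPA3 in the shNT libraries and at 1.14 and 1.62 times in the shGlud1 libraries.

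All 4 genes of chromatin assembly and inheritance rose, against 31.9% of all genes tested, at a median of 0.90. UHRF1, which brings the maintenance DNA methyltransferase to new DNA, was at 9.96 and 10.6 CPM in shNT and at 25.4 and 30.4 CPM in shGlud1 (1.44, SE 0.17, adjusted p = 2.69e-16). CHAF1B was at 16.4 and 12.5 CPM in shNT and at 27.8 and 29.9 CPM in shGlud1 (1.00, SE 0.16, adjusted p = 2.22e-09). CHAF1A, its partner in the histone chaperone CAF-1, rose by a similar amount (0.79). SLBP, which binds the stem-loop of histone mRNAs, was at 35.1 and 37.6 CPM in shNT and at 50.1 and 56.1 CPM in shGlud1 (0.55, SE 0.14, adjusted p = 0.000153).

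Subunits of the same complex moved by different amounts, and ratios taken inside a library do not depend on how libraries are scaled. For each of 10 complexes the gene with the highest fold change was divided by the gene with the lowest; since fold change chose the pairs, these ratios are a description. The ratio of POLD3 to POLD2 was 0.0116 and 0.0122 in shNT, then 0.0440 and 0.0591 in shGlud1. That of POLA1 to PRIM1 was 0.17 and 0.39, then 1.17 and 1.46. That of ORC1 to ORC3 was 0.17 and 0.21, then 0.92 and 0.85. The change was smaller for the kinase pair CDC7 and DBF4, the only complex whose ratio overlapped between groups, and for CHAF1B over CHAF1A (0.51 and 0.48, then 0.60 and 0.56). These ratios can still follow the trend on transcript length described below. With that trend removed, the log2 difference between the fold changes went from 2.30 to 1.44 for POLA1 and PRIM1. It went from 2.09 to 1.66 for POLD3 and POLD2 and from 2.21 to 2.03 for ORC1 and ORC3. It grew for MCM6 over MCM5 (0.85 to 0.96) and CDC7 over DBF4 (0.185 to 0.301), and shrank in the other complexes.

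Levels of subunits per kilobase of transcript lay closer together in the shGlud1 libraries in 7 of the 10 complexes, with no overlap between groups. No such count was made for other groups of genes, so it does not set these complexes apart. In polymerase delta the most abundant subunit gene, POLD2, was 152 and 145 times the least abundant, POLD3, in the shNT libraries and 40.2 and 30.0 times in the shGlud1 libraries. In RPA the spread went from 8.49 and 8.52 times to 3.18 and 2.63 times. Polymerase epsilon was the exception that widened, from 1.21 and 1.27 times to 2.44 and 2.43 times, and ORC and CDC7 with DBF4 overlapped. POLE and POLE2 differ in transcript length (8011 and 1792 nt). With the trend of fold change on length removed, the log2 difference between their fold changes went from 1.32 to 0.38. Across the 49 genes with a length, fold change and level per kilobase had a Spearman correlation of -0.473, and across all 14266 genes with a length -0.311; both share libraries and transcript lengths with the fold changes and are descriptions.

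**Figure D3:**
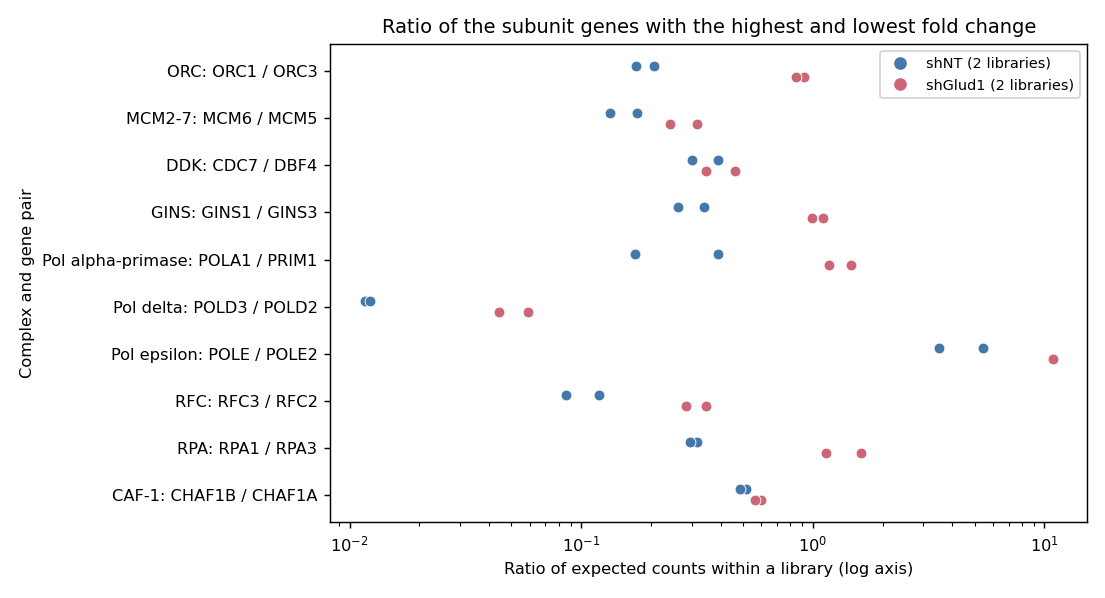
Ratio of expected counts, within each library (log axis), of the subunit genes with the highest and the lowest fold change of 10 complexes; blue points are shNT and red points shGlud1 libraries. Red points lie to the right of both blue points in every complex but CDC7 and DBF4.

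Transcript length moved with these results. In this comparison fold change rose with the length of a gene's longest transcript, with a Spearman correlation of 0.447 across the 14266 genes and 0.47 across the 49 replication genes with a length (UHRF1 had none by its identifier). Of the 24 shorter replication genes, up to 3208 nt, 11 rose and 4 fell (median 0.29), against 16.1% and 43.9% of all genes in that range (median -0.37). Of the 25 longer genes 21 rose and 1 fell (median 1.00), against 46.3% and 16.1% of all longer genes (median 0.40). Replication genes thus lay above other genes in both length ranges. With the smooth trend on length removed from each library, 32 of 49 rose and 4 fell, against 25.5% and 30.7% of all genes, and the median was 0.64 against -0.047 for all genes. PCNA and RFC4, at 1359 and 1448 nt, were among the shortest and rose by more after that step (1.47 and 1.55), while POLE, at 8011 nt, rose by less (0.88).

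**Figure D4:**
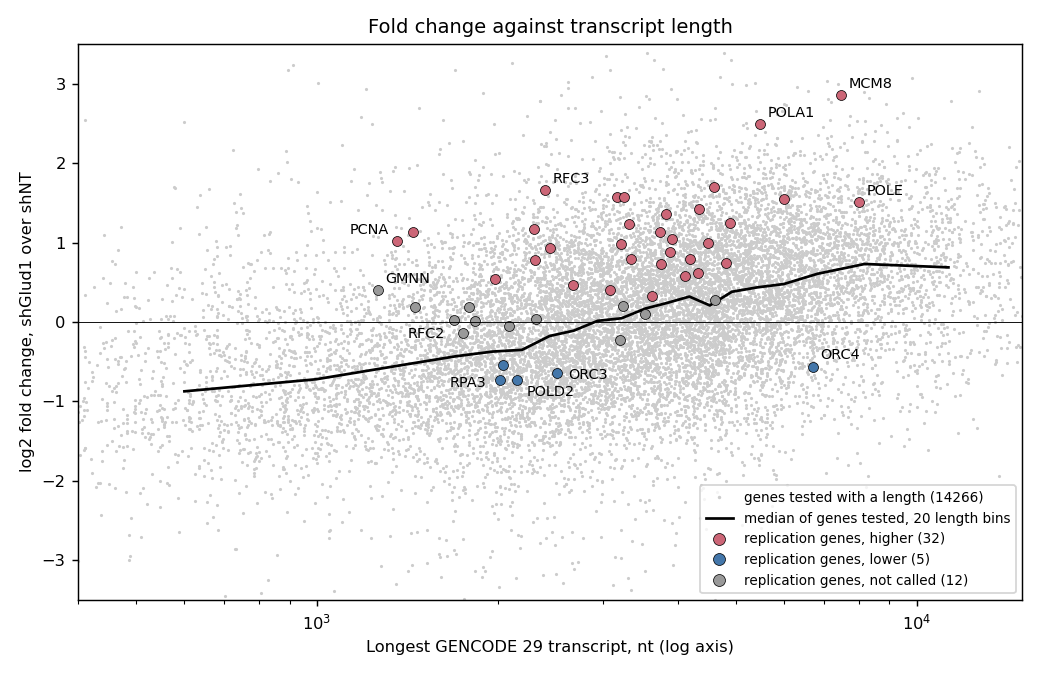
Log2 fold change, shGlud1 over shNT, against the longest GENCODE 29 transcript (nt, log axis) for all genes tested with a length (grey; values past the axis limits not shown) and the replication genes (coloured by call); the black line is the median of all genes in 20 bins of length. Most replication genes lie above the line, whereas ORC4, a long transcript, lies well below it.

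**Figure D5:**
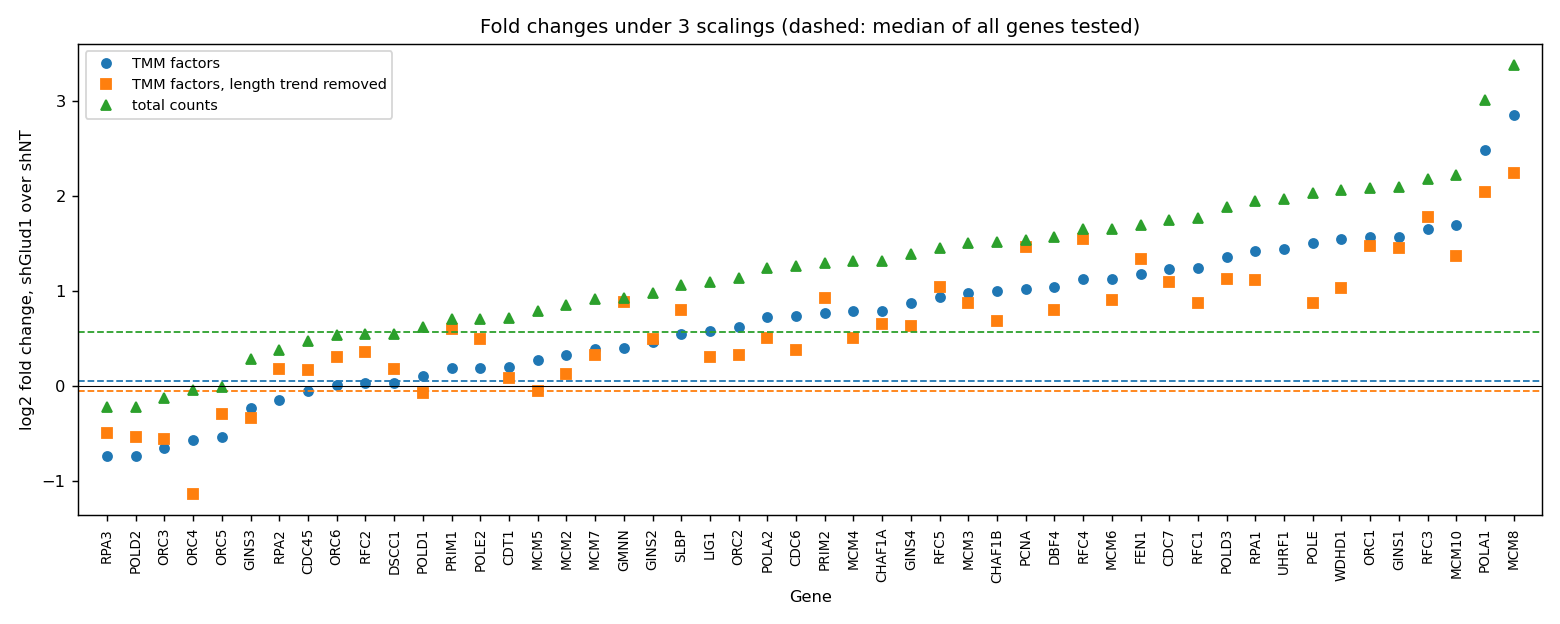
Log2 fold change of each replication gene with TMM factors (circles), with the length trend also removed (squares) and under total counts (triangles), ordered by the first; dashed lines mark the median of all genes under the same scaling. Total counts lift genes and line together, and only RPA3, POLD2, ORC3, ORC4 and ORC5 stay below 0 in that scaling.

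Genes that work with these at the fork were counted from lists. Of 12 genes of the replication checkpoint and fork protection, 7 rose and 2 fell, at a median of 0.62, against 31.9% and 29.1% of all genes. Once the trend on length was taken out, 5 rose and 3 fell, against 25.5% and 30.7%, and ATR, the checkpoint kinase, went from a called 1.01 to 0.38 (adjusted p = 0.179). CLSPN, the adaptor that lets ATR activate CHEK1, rose by 3.38 (SE 0.30), from only 10 and 18 expected counts in the shNT libraries. TOPBP1, an activator of ATR, rose by 1.56 and RAD17, which loads the checkpoint clamp, by 1.48. The checkpoint clamp genes HUS1 (-0.62) and RAD9A (-0.57) fell, RAD9A without a call once length and GC trends were removed (-0.10, adjusted p = 0.534), and RAD1, their partner, did not pass the test (-0.12, adjusted p = 0.473), though it was called as lower without the length trend (-0.60) and as higher under total counts (0.40). Under total counts 10 of the 12 rose, against 7592 of all 14616 genes, and HUS1 and RAD9A stood at -0.097 and -0.053.

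Of 23 further replication factors tested, 11 rose and 3 fell, at a median of 0.45, against 31.9% and 29.1% of all genes. Taking out the trend on length gave 13 rises and 5 falls, against shares of 25.5% and 30.7%. TICRR, which helps CDC45 join the origin, rose by 1.66 (SE 0.29), the fork stability gene DONSON by 1.43 and the maintenance methyltransferase gene DNMT1 by 1.43. MCM9, the partner of MCM8, rose by 1.25, a call that ended with the length trend removed (0.64, adjusted p = 0.0624). POLE4, a small accessory subunit of polymerase epsilon, was at 438 and 430 CPM in shNT and at 147 and 106 CPM in shGlud1 (-1.78, SE 0.14, adjusted p = 1.8e-33). RNASEH2C (-1.06), a subunit of the ribonuclease that removes ribonucleotides from DNA, and LRWD1 (-0.61), which binds ORC on chromatin, fell too, LRWD1 without a call under total counts (-0.097). POLE4 was still called as lower with the length trend removed (-1.31) and under total counts (-1.27), so polymerase epsilon held both one of the larger rises (POLE) and this fall.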

How the data were processed

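RNA from 4 libraries of U87 cells was measured. Per the labels' protocols, poly-A RNA was taken from 1 µg of total RNA, the kit was TruSeq V2 with 12 PCR cycles, and paired reads were 150 nt long. The authors deposited expected counts, an estimate of reads for each gene (20.1% of values above 0 were not whole). The tools named per the submitters' processing notes were Bowtie 0.12.2 with mm8, a mouse build, but all 57820 rows carry human gene identifiers. How reads were counted, and on which human annotation, is not given in the sources used here.

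Counts were rounded. In edgeR 4.0.16 (R 4.3.3) genes were kept by filterByExpr (minimum count 10), which left 14616, scaled with TMM factors (0.826 and 0.845 for shNT, 1.15 and 1.25 for shGlud1) and compared with the robust quasi-likelihood test, with no block; p was adjusted by Benjamini-Hochberg over all genes tested. The test was checked on simulated data. SE is the absolute log2 fold change over the square root of F. The biological coefficient of variation was 10.3%, and PCR copies are not independent molecules. Alternatives were DESeq2 1.42.0, limma-voom (limma 3.58.1), total counts, upper-quartile or RLE factors, the replicate block, no filter, at least 1 CPM in 2 libraries, each library left out, and lowess trends (span 0.3) on length, or length and GC, removed from each library. Positions, lengths and GC came from GENCODE 29 (GRCh38) by Ensembl identifier, promoters from RefSeq by symbol. The longest transcript may not be the one expressed. In GENCODE 29, exons of 20 of the 50 genes share bases with another gene, up to 35.1% for POLA2 (AP000944.2), 22.7% for MCM2 (the antisense AC023593.1) and 21.2% for GINS4 (an antisense gene), and the TruSeq V2 kit does not mark strand, so reads there are uncertain.

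The members and lists were chosen with earlier results of these data known. A further marker list is not reported here. In each role the value in every library is given for the called genes with the largest 2 fold changes, the gene with the smallest and called genes against the majority; PCNA and POLE4 were added after their values were seen. Figures used matplotlib 3.10.9 in Python 3.11.15.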

Additional observations from a re-analysis of the deposited data

How the results depend on the processing

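The count of replication genes that rose was 28 to 34 when each library was left out in turn and 32 to 34 in the other alternatives except total counts (44). The count that fell was 3 to 5 with each library left out (3 without shNT replicate 2), 4 to 6 in the others and 0 under total counts, where all genes gave 7592 rises and 2000 falls. Of the 33 rises, 25 were called in the same direction in all 14 alternatives, UHRF1 in the 12 that could be run for it, and 27 with each library left out; of the 5 falls, 0 and 3 were (ORC3, POLD2 and RPA3). With the replicate number as a block (replicate block) 34 replication genes rose and 5 fell; it added GMNN and changed no other call. Libraries sharing a number did not deviate together (correlation over genes 0.0409), and the labels give the numbers no other meaning. Over single genes and alternatives, 629 values kept direction and call, 24 lost the call, 22 gained one and 23 changed sign, all 23 in genes with no call in the comparison as reported, of which 2 (CDC45 and RPA2) were called as higher under total counts. Signs changed with RLE factors for ORC6 (-0.0384), RFC2 (-0.0241) and DSCC1 (-0.0225), with DESeq2 for the same genes (-0.0384, -0.0243 and -0.0241), under total counts for CDC45 (0.47), GINS3 (0.29) and RPA2 (0.38), with the length trend removed for MCM5 (-0.0504), CDC45 (0.173), POLD1 (-0.0696) and RPA2 (0.178), and with length and GC trends removed for CDC45 (0.173) and RPA2 (0.033). With each library left out CDC45 ran from -0.174 to 0.0762, PRIM1 from -0.0275 to 0.42, POLD1 from -0.0437 to 0.23, RFC2 from -0.117 to 0.188 and DSCC1 from -0.127 to 0.20. The cause was not tested. Depth limits the least abundant genes most: MCM8 had as few as 6 expected counts in a library.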

Other observations

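Of 11 genes that supply nucleotides for replication, 8 rose and 3 fell, at a median log2 fold change of 0.63, against 31.9% and 29.1% of all genes. Once the trend on length was taken out, 6 rose and 3 fell, against 25.5% and 30.7% of all genes. The ribonucleotide reductase genes RRM2 and RRM1, which make deoxynucleotides, stood at 38.0 and 36.5 CPM and at 40.1 and 34.9 CPM in the shNT libraries, and at 93.5 and 107 CPM and at 90.004 and 107 CPM in the shGlud1 libraries. SAMHD1, which breaks deoxynucleotides down, rose as well, from 9.08 and 9.48 CPM to 24.5 and 27.3 CPM (1.48, SE 0.17). The genes that fell were DCTPP1 (-1.02), DTYMK (-0.87) and DUT (-0.53), which clear or make pyrimidine nucleotides. All 3 were still called as lower with the length trend removed, and DTYMK was not once length and GC trends were removed (-0.16, adjusted p = 0.117). Under total counts DCTPP1 (-0.50) and DTYMK (-0.36) kept their calls, and DUT (-0.012) did not.

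Of 13 E2F and retinoblastoma family genes 8 rose and E2F4 fell (-0.41), against 31.9% and 29.1% of all genes. The median of the 13 was 0.56. Taking out the trend on length left 6 rises, against 25.5% of all genes. It left 3 falls (E2F4, E2F7 at -0.65 and TFDP2 at -0.45), against 30.7%. Under total counts 11 rose, against 7592 of all 14616 genes. E2F1, the activator best known for driving replication genes, was at 133 and 135 CPM in shNT and at 144 and 124 CPM in shGlud1, with groups that overlapped (0.0056, adjusted p = 0.973), and it was called as higher under total counts (0.52) and with length and GC trends removed (0.39). E2F2 rose by 2.98, the repressor E2F8 by 2.11 and the pocket protein gene RBL1 by 1.90. The shNT libraries held only 20 and 18 expected counts of E2F2 and 7 and 9 of E2F8. E2F7 did not pass the test (-0.17, adjusted p = 0.331). The fall of E2F4 lost its call with length and GC trends removed (-0.13, adjusted p = 0.244) and turned into 0.11 under total counts.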
